A study of Homo sapiens with 4 samples.

Results

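The regions described here are the HITS-CLIP summits of Star-PAP that fell in pseudogenes of human HEK 293 cells. A summit was a member when it lay on an autosome, in an exon of a gene whose GENCODE type contains the word pseudogene, and in no exon of a protein-coding transcript. By this rule 4827 of 1031599 summits were members, of which 1392 came from the control library, 1801 from the siStar-PAP library and 1634 from the siRBM10 library. They fell in 3631 of the 13942 autosomal pseudogenes that had exon sequence outside coding transcripts, 10609 kb in all. HITS-CLIP crosslinks a protein to RNA with UV light, pulls the protein down and sequences the RNA fragments that come with it. Star-PAP is a variant enzyme that adds poly(A) tails to chosen mRNAs, and RBM10 is an RNA-binding protein associated with it. HEK 293 is an established human embryonic kidney cell line. Each of the 3 lists came from a pull-down with an anti-Star-PAP antibody: from cells that the study treats as the control state (labelled StarPAP pulldown), from cells treated with siRNA to Star-PAP (siStar-PAP) and from cells treated with siRNA to RBM10 (siRBM10). A pull-down with IgG served the authors as reference for calling peaks and has no list of its own here. All cells were crosslinked at 400 mJ per cm2, and the labels give harvest 48 h after transfection with Oligofectamine, while the methods of the study name calcium phosphate. Each condition was a single library, so differences between conditions are given as values with counting intervals, without any test over replicates. The lists hold no RNA levels, so neither depletion could be checked in them, and less bound Star-PAP cannot be told apart from a changed RNA level.

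Pseudogenes are copies of genes that have lost the ability to make the original protein. Processed pseudogenes arose when a spliced mRNA was reverse-transcribed and inserted elsewhere in the genome, so they carry the exons of their parent joined together and no introns. Unprocessed pseudogenes arose by duplication of a stretch of DNA and keep the exon and intron layout, and unitary pseudogenes are genes that decayed without a working copy. Abundantly transcribed genes, those of ribosomal proteins above all, left many processed copies in the human genome. A short read from a recent copy can match the parent mRNA base for base, which is why the sequences under the strongest summits are shown before the counts.

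The score of a summit was the −log10 of its MACS2 p-value as listed by the authors. The strongest pseudogene summits of the depleted libraries lay in sequence that is identical or nearly so to the coding sequence of the parent mRNA. For each, the 30 nt around the summit are printed 5′ to 3′ on the strand of the pseudogene (hg19), followed by the aligned stretch of the closest coding transcript, with capitals at the bases that differ between the pair.
ENSG00000244313 at the siRBM10 summit, chr11:46450428-46450457, minus strand: taccttcatctgcccccAgagattgtgcct
RPS10 mRNA: taccttcatctgcccccGgagattgtgcct
ENSG00000244313 at the siStar-PAP summit, chr11:46450542-46450571, minus strand, the same letters in RPS10 mRNA: catgtcatgaaggccatgcagtctctcaag
ENSG00000218175 at the siRBM10 summit, chr2:177065863-177065892, minus strand, the same letters in RPLP1 mRNA: ccctcattaaagcagccggtgtaaatgttg
ENSG00000218175 at the siStar-PAP summit, chr2:177065910-177065939, minus strand, the same letters in RPLP1 mRNA: cattctgcacgacgatgaggtgacagtcac
ENSG00000218175 at the control summit, chr2:177065920-177065949, minus strand, the same letters in RPLP1 mRNA: actcggccctcattctgcacgacgatgagg
RPL7AP6 at the siStar-PAP summit, chr14:70352718-70352747, minus strand, the same letters in RPL7A mRNA: gaattttggcattggacaggacatccagcc
RPS19P1 at the siRBM10 summit, chr20:18485566-18485595, plus strand: gagtgtCCTccgccgggtcctccaagccct
RPS19 mRNA: gagtgtGGCccgccgggtcctccaagccct
ENSG00000283041 at the siRBM10 summit, chr7:132719982-132720011, minus strand: acccaGcctaaaaaggacacaccacggaaa
EEF1G mRNA: acccaAcctaaaaaggacacaccacggaaa

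Of the 5 strongest control summits, the 4 with a coding match are shown in the same layout. The control summit of the RPLP1 copy above had the same score as the PPIAP41 and PHC1P1 summits.
ENSG00000266876 at the control summit, chr17:28395703-28395732, plus strand: gaacaaggcActgggagtggcAgtgggTgg
STX18 mRNA: gaacaaggcGctgggagtggcGgtgggCgg
ENSG00000226396 at the control summit, chr1:19934809-19934838, plus strand: gaatcctcGccatatgctgctatgttgAcC
RPS14 mRNA: gaatcctcAccatatgctgctatgttgGcT
PPIAP41 at the control summit, chr11:43487977-43488006, plus strand: cAacAgcAagcccttAggAcAcAtctcctt
PPIA mRNA: cGacGgcGagcccttGggCcGcGtctcctt
PHC1P1 at the control summit, chr12:55807591-55807620, minus strand: ggtgggagctgtcccagGaagggtacagga
PHC1 mRNA: ggtgggagctgtcccagAaagggtacagga
In these stretches the STX18 and RPS14 copies differed from their transcripts at 3 bases each, as did the RPS19P1 stretch of siRBM10, while the PPIA copy differed at 7 and the PHC1 copy at 1. Each of these 4 control stretches of 30 nt occurred once in the genome, and so did the siRBM10 stretches of RPS19P1 and of the EEF1G copy. The other stretches of the depleted libraries had copies: the 30 nt under the RPL7AP6 summit occurred at 14 places, those under the siStar-PAP summit of the RPS10 copy at 10, those under the siRBM10 summit of the RPLP1 copy at 3, and the siRBM10 stretch of the RPS10 copy and the siStar-PAP stretch of the RPLP1 copy at 2 each. The control stretch of the RPLP1 copy also occurred at 2 places. With 50 nt in place of 30, the RPL7AP6 stretch still occurred at 11 places, and the siRBM10 stretch of the RPLP1 copy occurred once. The authors kept reads that mapped to a single locus, and how often a read was placed in a copy rather than in its parent was not tested.

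Over the whole lists, pseudogene exons held more summits than shuffled positions in both depleted libraries and slightly fewer in the control. The control had 0.131 summits per kb of pseudogene exon (95% Poisson interval 0.124 to 0.138), against a mean of 0.139 in 20 sets of positions shuffled within the same chromosomes, a ratio of 0.941 (0.892 to 0.991). The siStar-PAP library had 0.170 per kb (0.162 to 0.178) against 0.122 shuffled, a ratio of 1.39 (1.33 to 1.45). The siRBM10 library had 0.154 per kb (0.147 to 0.162) against 0.110 shuffled, a ratio of 1.40 (1.34 to 1.47). All intervals cover counting error only, not the spread between libraries. By single chromosome the ratio ran from 0.659 to 1.19 in the control, 0.879 to 2.12 in siStar-PAP and 0.840 to 2.18 in siRBM10. Both depleted libraries were below 1 on chromosomes 16 and 19, with intervals that held 1. The whole autosomes held 0.143, 0.114 and 0.103 summits per kb in the control, siStar-PAP and siRBM10 lists, so the depleted libraries had fewer summits in all and more in pseudogenes. As a share of autosomal summits, pseudogene exons took 0.363% of the control, 0.588% of siStar-PAP and 0.592% of siRBM10. Exons of protein-coding transcripts showed the same order with a wider gap, at ratios to shuffled positions of 0.739, 1.81 and 1.85, and lncRNA exons stood at 0.743, 1.18 and 1.20.

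Processed pseudogenes lay above shuffled positions in both depleted libraries, while the intervals of unprocessed ones held the shuffled level. Processed ones made up 66.2% of the pseudogene sequence and held 963, 1293 and 1185 summits in the control, siStar-PAP and siRBM10 libraries. Their ratio to shuffled positions was 0.964 (0.904 to 1.03) in the control, 1.58 (1.49 to 1.67) in siStar-PAP and 1.60 (1.51 to 1.69) in siRBM10. Unprocessed pseudogenes held 327, 379 and 315 summits, with ratios of 0.947 (0.847 to 1.05), 1.10 (0.991 to 1.22) and 1.02 (0.909 to 1.14), each interval holding 1. The remaining types, unitary and immunoglobulin segments among them, held 102, 129 and 134. Among these, the transcribed unitary pseudogenes stood at 0.638 (0.462 to 0.860) in the control, 1.31 (1.04 to 1.62) in siStar-PAP and 1.64 (1.31 to 2.02) in siRBM10. Processed pseudogenes annotated as transcribed did not stand above the others in the depleted libraries, and in the control the interval of each group held 1, at 0.997 against 0.960 in the control, 1.42 against 1.60 in siStar-PAP and 1.5 against 1.61 in siRBM10. Among unprocessed pseudogenes the transcribed ones stood at 0.803 (0.653 to 0.977) against 1.03 in the control, 1.18 (1.01 to 1.38) against 1.04 in siStar-PAP and 1.13 (0.951 to 1.34) against 0.943 in siRBM10. Pseudogenes inside the body of a protein-coding gene had ratios of 1.02, 1.59 and 1.78 in the control, siStar-PAP and siRBM10 libraries, and those outside such genes 0.914, 1.32 and 1.28.

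**Figure D1:**
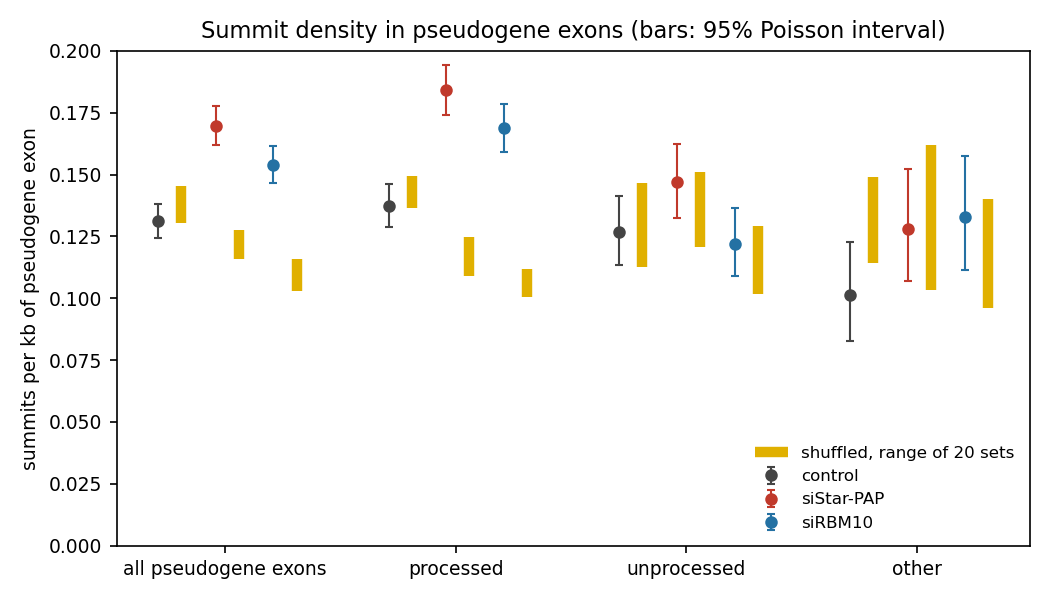
Summits per kb of pseudogene exon (y axis) for all pseudogenes and for the processed, unprocessed and other kinds, with points for the control, siStar-PAP and siRBM10 libraries, error bars for the 95% Poisson interval and thick bars for the range of 20 shuffled sets. Both depleted libraries lie above their shuffled range in processed pseudogenes (0.184 and 0.169 per kb), while in unprocessed pseudogenes all 3 intervals overlap their shuffled range.

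The control ratio depended on its weakest summits. In the control 48.7% of the pseudogene summits had the same score of 1.33, just past the p of 0.05 that the authors set, and 63.1% of all its autosomal summits had it. The commonest scores of the depleted libraries were higher, 2.92 in siStar-PAP and 3.25 in siRBM10, so a given score does not mean the same in each list. At p at most 0.01, a score of 2 or more, the control kept 630 of its 1392 pseudogene summits, and their ratio to shuffled positions was 1.22, beside 1.37 in siStar-PAP and 1.39 in siRBM10. With each list cut to the summit number of the shortest, the ratios were 1.02, 1.37 and 1.40 in the control, siStar-PAP and siRBM10. With fewer top-scoring summits of each library, numbers that were chosen after seeing the data, the ratios among the top 50000 were close, at 1.53 (1.36 to 1.71) in the control, 1.59 (1.42 to 1.77) in siStar-PAP and 1.52 (1.36 to 1.70) in siRBM10. Among the top 10000 they were 1.73 (1.34 to 2.20), 2.29 (1.86 to 2.80) and 1.54 (1.19 to 1.96). The ratios of both depleted libraries were therefore above that of the control over the whole lists, at p at most 0.01 and at equal numbers, and not among the top 50000, while among the top 10000 siStar-PAP alone was above it, with overlapping intervals.

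The top of the lists separated the libraries by the kind of pseudogene. Of the top 1000 summits of each library, 6 in the control, 26 in siStar-PAP and 19 in siRBM10 lay in processed pseudogenes, where shuffled positions gave 2.61, 2.67 and 2.68. Processed copies with at least 95% identity to their closest coding transcript held 4, 19 and 13 of these, with 0.288, 0.305 and 0.315 given by shuffled positions. Unprocessed pseudogenes held 0, 2 and 1. A score of 10 or more was reached by 9 pseudogene summits of siStar-PAP and 8 of siRBM10, which was 7.26% of 124 and 6.40% of 125 autosomal summits at that score, and by 0 of 394 in the control, which allows a share of up to 0.761%. All of these 17 summits lay in processed pseudogenes. At that score, exons of protein-coding transcripts held 1.78% of control, 45.2% of siStar-PAP and 48.8% of siRBM10 autosomal summits. Of the top 1000 they held 23, 200 and 177 in the same order, so the contrast between libraries was not particular to pseudogenes.

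**Figure D2:**
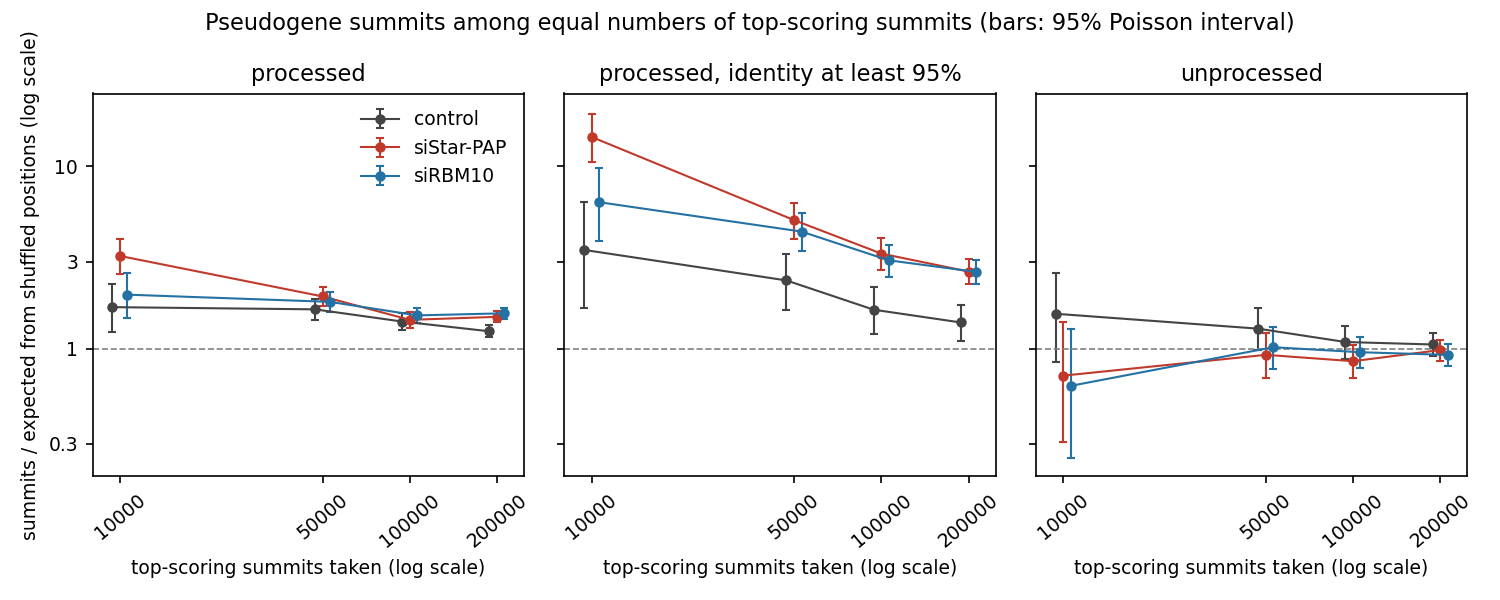
Summits in processed pseudogenes, in processed pseudogenes with at least 95% identity to a coding transcript and in unprocessed pseudogenes, divided by the number expected from shuffled positions (y axis, log scale), among the 10000 to 200000 top-scoring summits of each library (x axis, log scale), with 95% Poisson intervals. Close processed copies reach 14.4 times the expected number in siStar-PAP, 6.34 times in siRBM10 and 3.48 times in the control among the top 10000, while the unprocessed points lie between 0.625 and 1.55 with intervals that hold 1.

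The closest copies of a coding transcript had the highest densities in the depleted libraries. Each pseudogene was aligned to 1 transcript of every protein-coding gene. A closest transcript was assigned to 11387 of 14081 autosomal pseudogenes, with the limit set at 50% of their exons covered. In some the aligned stretch was shorter than that, as in SPATA31D2P with 1846 of 4388 nt and MST1L with 942 of 2185 nt. In the siStar-PAP library the ratio of processed pseudogenes to shuffled positions was 0.987 (0.819 to 1.18) below 80% identity, 1.22 (1.03 to 1.43) from 80 to 85%, 1.68 (1.48 to 1.89) from 85 to 90%, 1.88 (1.70 to 2.08) from 90 to 95%, 2.29 (1.94 to 2.68) from 95 to 98% and 2.91 (2.29 to 3.63) above that. The siRBM10 library gave 1.16, 1.18, 1.60, 1.88, 2.54 and 2.70 in the same order. The control gave 0.975, 1.02, 0.887, 0.955, 1.05 and 1.12, and the interval of each held 1. The densities therefore climbed with identity in both depleted libraries and stayed level in the control over its whole list. Unprocessed pseudogenes had no steady climb. The control had 1.32 (1.05 to 1.64) below 80% identity, siStar-PAP was highest from 95 to 98% with 1.43 (1.09 to 1.83), and above 98% they stood at 0.417 (0.208 to 0.747) in the control, 0.830 (0.526 to 1.25) in siStar-PAP and 0.667 (0.388 to 1.07) in siRBM10. Processed pseudogenes with no coding match stood at 0.928, 1.22 and 1.20.

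**Figure D3:**
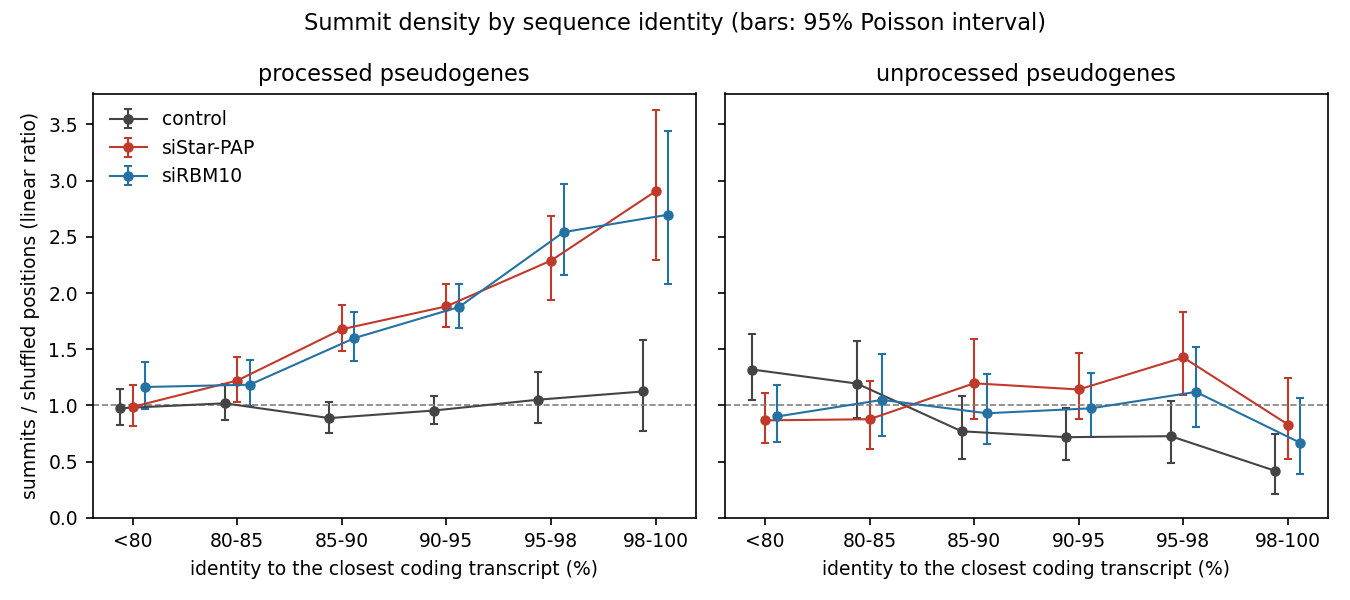
Ratio of summits to shuffled positions (y axis, linear) by percent identity of the pseudogene to its closest coding transcript (x axis), for processed pseudogenes on the left and unprocessed on the right, in the control, siStar-PAP and siRBM10 libraries with 95% Poisson intervals. Among processed copies the siStar-PAP points climb from 0.987 to 2.91 and the siRBM10 points from 1.16 to 2.70, the control stays between 0.887 and 1.12, and in the unprocessed panel the control goes from 1.32 to 0.417 and the depleted libraries show no steady climb.

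Uniqueness of the sequence moved with these densities. Of all pseudogene bases, 27% had a surrounding 30 nt that occurred again elsewhere in the genome, and of the summits 20.9% (18.9 to 23.1) did in the control, 22.8% (20.9 to 24.8) in siStar-PAP and 23.8% (21.8 to 25.9) in siRBM10. In processed pseudogenes, with 20.4% of bases copied, the shares of summits were 16.8% (14.6 to 19.3) in the control, 20.1% (18 to 22.4) in siStar-PAP and 21.8% (19.5 to 24.2) in siRBM10. In unprocessed pseudogenes, with 42.4%, they were 33.6, 35.1 and 34.6%. Summits were thus rarer in copied sequence in unprocessed pseudogenes of every library and in processed ones of the control, while in processed ones the intervals of both depleted libraries held the share of bases. Over bases whose 30 nt occur once, the ratio to shuffled positions was 1.01 in the control, 1.48 in siStar-PAP and 1.48 in siRBM10. Over copied bases it was 0.749, 1.15 and 1.20. The difference between libraries was therefore as large over single-copy bases alone, and the part of copied sequence in the lower density of unprocessed pseudogenes was not tested.

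Members of the ribosomal protein family were the most numerous. Cytosolic ribosomal proteins build the ribosome with the rRNAs, and 1513 of the pseudogenes bore their names, of which 1493 were processed. They held 118 summits in the control, 159 in siStar-PAP and 167 in siRBM10, at ratios to shuffled positions of 1.03 (0.851 to 1.23), 1.70 (1.44 to 1.98) and 1.98 (1.69 to 2.31). Of the 1513 copies, 367 held at least 1 summit of any library, beside 3631 of all 13942 pseudogenes. When parents were taken from the closest transcript and not from the name, processed copies of ribosomal protein genes with at least 95% identity stood at 1.62 (1.10 to 2.30) in the control, 3.41 (2.60 to 4.40) in siStar-PAP and 3.70 (2.79 to 4.8) in siRBM10. Other processed copies of the same identity stood at 0.955, 2.25 and 2.35. Below 95% identity the ribosomal protein copies were at 1.03, 1.53 and 1.69 and the other copies at 0.941, 1.51 and 1.49, so the ratios of the 2 groups lay closer together there in the siStar-PAP and siRBM10 lists.

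Keratin copies had the highest siStar-PAP ratio among the families with more than 100 summits. Keratins form the intermediate filaments of epithelial cells, and KRT8 and KRT18 are the pair of simple epithelia. The 125 keratin pseudogenes held 30, 60 and 38 summits in the control, siStar-PAP and siRBM10 libraries, at ratios of 1.46 (0.983 to 2.08), 3.17 (2.42 to 4.08) and 2.07 (1.47 to 2.84). The 60 copies of KRT18 held 19, 29 and 20 summits where shuffled positions gave 10.4, 8.80 and 9.45. The 46 copies of KRT8 held 8, 19 and 12 where shuffled positions gave 8.10, 6.55 and 5.35. KRT18 had the most pseudogene summits of any parent, and its copies stood above shuffled positions in the control as well.

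Actin copies, from the genes of the cytoskeletal filament, held 11, 14 and 9 summits in the control, siStar-PAP and siRBM10 libraries, at ratios of 2.0, 2.86 and 2.12. Most of these came from the 18 copies of ACTG1, with 9, 10 and 6. Tubulin copies, from the genes of the microtubule subunits, held 10, 11 and 9, at 1.53, 2.12 and 2.17. Of these intervals those of siStar-PAP lay above 1 for both families, and those of the control and siRBM10 held 1. Copies of the translation elongation factors held 13, 12 and 11 summits at 1.31, 1.54 and 1.39, with the 43 copies of EEF1A1, which brings aminoacyl-tRNA to the ribosome, accounting for 11, 10 and 9. The hnRNP copies, from genes that package nuclear RNA, held 12, 16 and 17 at 0.767, 1.15 and 1.42.

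Several housekeeping families had their highest ratio in siRBM10. The copies of PPIA, which encodes the peptidyl-prolyl isomerase cyclophilin A, held 5 summits in the control, 5 in siStar-PAP and 14 in siRBM10, at ratios of 0.833, 0.862 and 3.50 (1.91 to 5.87). The copies of GAPDH, an enzyme of glycolysis, held 10, 7 and 17, at 1.19, 1.09 and 2.62 (1.52 to 4.19). The copies of the nucleolar protein NPM1 held 6, 2 and 9, at 1.15, 0.513 and 2.90 (1.33 to 5.51). The copies of the iron store ferritin were highest in siStar-PAP, with 1, 7 and 3 summits and a siStar-PAP ratio of 3.04 (1.22 to 6.27). These counts were small, and with 1 library each no difference between siStar-PAP and siRBM10 could be tested.

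Olfactory receptor, mitochondrial, immunoglobulin and zinc finger pseudogenes did not have higher ratios than the control in both depleted libraries. Olfactory receptor pseudogenes, remnants of the large receptor family of the nose, numbered 425, of which 406 were unprocessed, and held 75 summits in the control, 39 in siStar-PAP and 56 in siRBM10, at ratios of 1.42 (1.12 to 1.78), 0.902 (0.641 to 1.23) and 1.45 (1.09 to 1.88). Nuclear copies of mitochondrial genes held 51, 33 and 26, at 1.26, 1.11 and 0.967. Immunoglobulin and T cell receptor segments held 15, 6 and 5, at 1.83 (1.02 to 3.02), 0.663 and 0.658. Zinc finger copies held 18, 20 and 16, at 1.05, 0.909 and 0.838, and rRNA copies 7, 4 and 8. Heat shock protein copies, from genes of protein-folding chaperones, held 3, 6 and 8 summits, and their control ratio of 0.296 (0.0610 to 0.864) was the only family interval that lay wholly below 1. High mobility group copies held 16, 10 and 12 summits and proteasome subunit copies 6, 2 and 4, with intervals that held 1 in every library. Of the 18 families, 2 had an interval above 1 in the control, 5 in siStar-PAP and 6 in siRBM10.

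**Figure D4:**
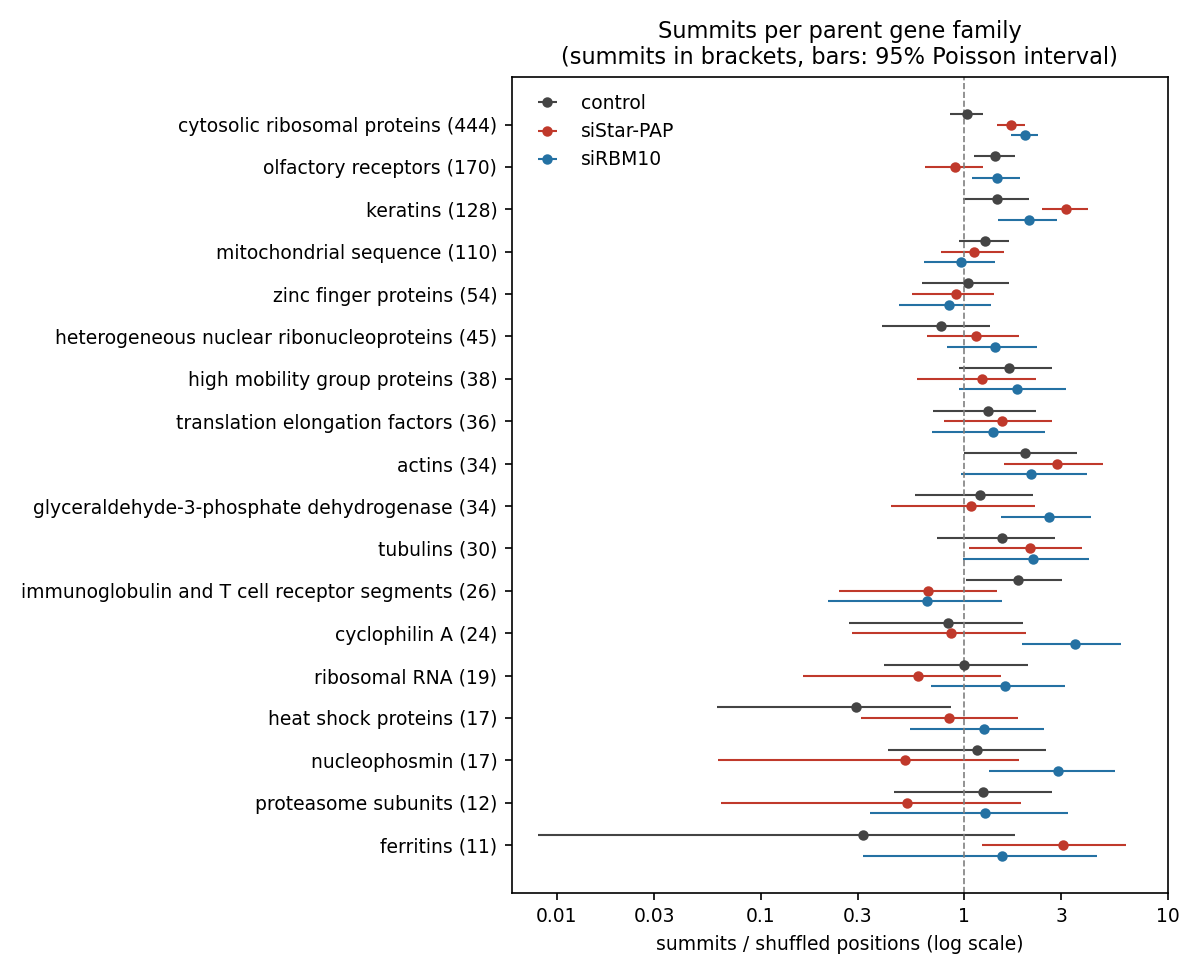
Ratio of summits to shuffled positions (x axis, log scale) for 18 parent gene families, with the number of summits over the 3 libraries in brackets, points for the control, siStar-PAP and siRBM10 libraries and lines for 95% Poisson intervals. Ribosomal protein and keratin copies lie above 1 in both depleted libraries, olfactory receptors lie above 1 in the control and in siRBM10 and not in siStar-PAP, and the families of fewest summits have wide intervals.

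The remaining parents with most pseudogene summits were RPL7A with 11, 12 and 7 summits in the control, siStar-PAP and siRBM10 libraries, RPSA with 10, 12 and 8, HNRNPA1 with 9, 5 and 9 and RPL23A with 5, 9 and 8. RPL7A and RPL23A are proteins of the large ribosomal subunit and RPSA of the small one, and HNRNPA1 is a splicing regulator. The next parent in this order was CIC, a transcriptional repressor, with 25 copies and 2, 15 and 4 summits, where shuffled positions gave 7.70, 8.40 and 6.60, and it was named after its values were seen.

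The pseudogenes with the strongest summits of the depleted libraries were picked by those scores, so their scores beside the control are a description. The RPS10 copy ENSG00000244313, 99.6% identical to its parent, had a top score of 1.33 in the control, 21.9 in siStar-PAP and 26.4 in siRBM10. The RPLP1 copy ENSG00000218175, 98% identical, had scores of 7.08, 17.3 and 23.8 in the same order, and was the pseudogene with the highest lowest-of-3 score. The EEF1G copy ENSG00000283041, from the gene of an elongation factor subunit, had 2.28, 13.9 and 21.3. In these 3 copies the control score was the lowest and the siRBM10 score the highest.

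Of the other 4, RPL4P4 had summits of every library and 3 lacked a library. RPL7AP6 had a top score of 3.36 in the control and 24.2 in siStar-PAP, with no siRBM10 summit in its exon and the nearest one 153 bp from the siStar-PAP summit. RPS19P1 had 9.78 in siStar-PAP and 21.9 in siRBM10, with no control summit in its exon and the nearest one 5703 bp away. The NONO copy ENSG00000260290, from the gene of a nuclear RNA-binding protein, had 14.6 and 18.2 in siStar-PAP and siRBM10, with the summits 17 bp apart and the nearest control summit 4442 bp from the siRBM10 one. RPL4P4 had 2.28, 15.0 and 7.28 in the control, siStar-PAP and siRBM10 libraries. A peak with p above 0.05 is not listed, so an absent summit is a signal under that limit and not a measured 0.

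The summits that scored 10 or more lay in 13 pseudogenes, of which 4 had such a summit in both depleted libraries. Ribosomal protein genes were the closest coding genes of 9 of the 13, and EEF1G, NONO, MORF4L1 and NPM1 those of the other 4. Identity to the closest transcript ran from 94.7 to 99.6%, and 12 of the 13 had at least 95%. Of all pseudogene summits, processed copies of ribosomal protein genes held 11.5% in siStar-PAP and 12.7% in siRBM10. Processed copies with at least 95% identity held 12.8 and 13.8%. The 30 nt around the summit occurred once in the genome for 5 of the 17 summits and the 50 nt for 10. Over all pseudogene summits the 30 nt occurred once for 77.2% in siStar-PAP and 76.2% in siRBM10. A control summit lay within 500 bp of 10 of the 17, beside 257 of all 1801 siStar-PAP and 211 of all 1634 siRBM10 pseudogene summits. Those outside the 5 strongest of each library were named after their values were seen: RPL13P12 with 11.3, the RPL19 copy ENSG00000224415 with 14.7 and the RPL23 copy ENSG00000180211 with 10.2 in siRBM10, and MORF4L1P1 with 13.9, NPM1P27 with 13.5 and RPLP0P6 with 11.6 in siStar-PAP.

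The 5 control summits listed as strongest lay in other pseudogenes. The RPLP1 copy had the same control score as PPIAP41 and PHC1P1 and was left out by order of position alone. The copy of STX18, the gene of a membrane fusion protein, ENSG00000266876 had a control score of 8.45 and no summit of a depleted library in its exon, the nearest being 772 bp away in siStar-PAP. ENSG00000254537, which had no coding match, had 8.20 in the control and 3.96 in siRBM10. The RPS14 copy ENSG00000226396 had 7.42 in the control, 3.40 in siStar-PAP and 4.48 in siRBM10. PPIAP41 had 7.08 in the control alone. PHC1P1, a copy of the Polycomb gene PHC1, had 7.08 in the control and 3.25 in siRBM10.

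Summits of all 3 libraries were found in 81 pseudogenes. Behind the RPLP1 copy, the highest lowest-of-3 scores belonged to PTMAP5, a copy of the prothymosin gene, with 3.49, 9.78 and 3.60 in the control, siStar-PAP and siRBM10 libraries, and to NPM1P27 with 3.43, 13.5 and 3.96. MYH16, a unitary muscle myosin pseudogene, had 3.88, 3.40 and 4.44, and KRT18P38 had 4.53, 4.28 and 3.25. ZSWIM5P1, NUFIP1P1 and PIPSL had scores from 2.55 to 4.16 in every library, and the RPS14 copy above also had one of the highest lowest-of-3 scores. In the RPLP1, PTMA and NPM1 copies the siStar-PAP score was well above the control score, while in the RPS14 copy, KRT18P38, ZSWIM5P1 and NUFIP1P1 the control score was the highest.

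**Figure D5:**
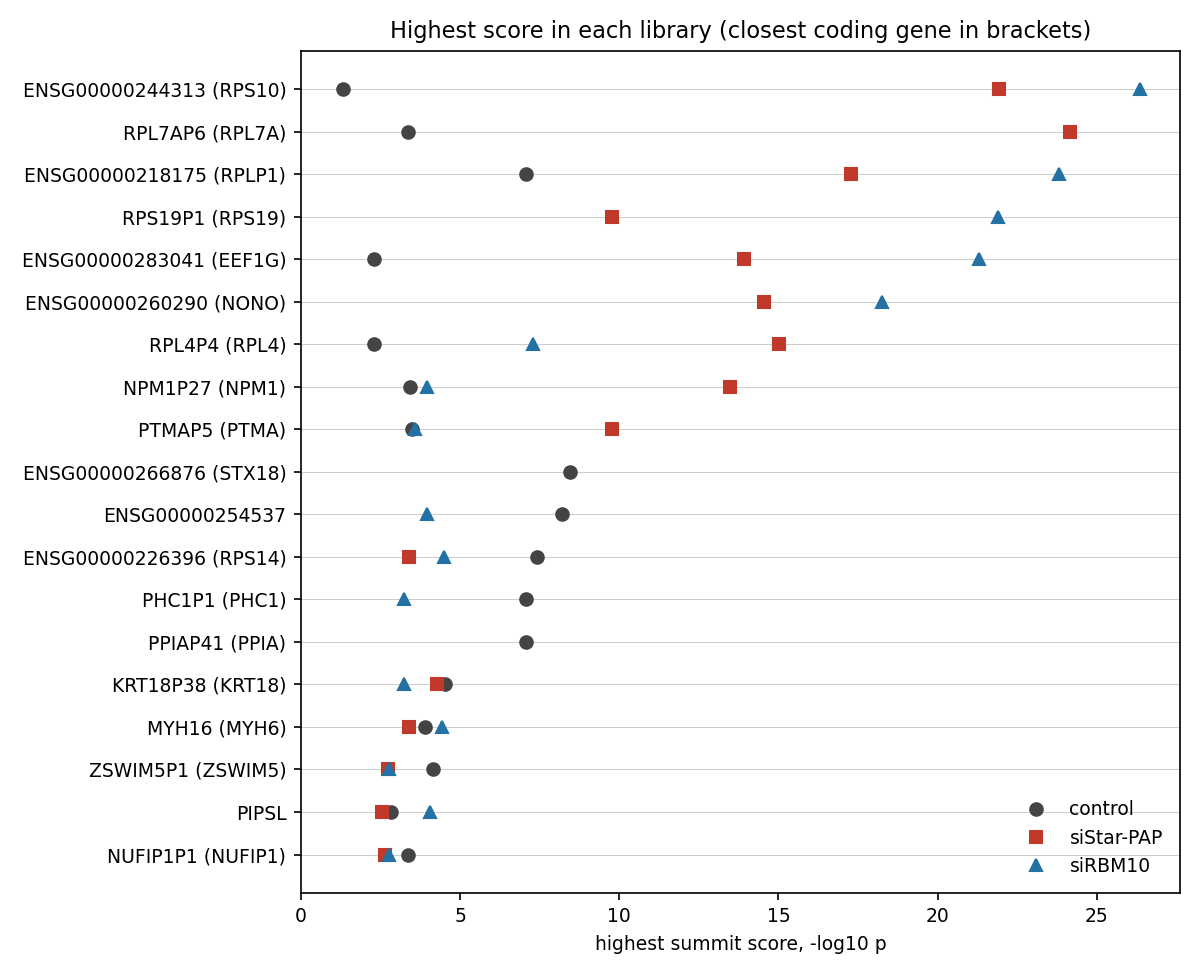
Highest summit score, the −log10 of p (x axis), in each library for the pseudogenes with the strongest summits and for those named above with summits in all libraries, with the closest coding gene in brackets. A missing point means that no summit was listed in the exon. Copies of RPS10, RPL7A, RPLP1, RPS19 and EEF1G exceed 20 in a depleted library, and no control point exceeds 8.45.

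The pseudogenes with most summits were long ones. ENSG00000286215, a transcribed processed pseudogene with 36780 nt of exon outside coding transcripts, held 5 control, 4 siStar-PAP and 4 siRBM10 summits, with top scores of 1.33, 2.92 and 3.25, which are the commonest scores of the lists. FER1L4, a unitary pseudogene of the ferlin family, held 2, 7 and 4 summits in 10224 nt. DNM1P47, a duplicated dynamin fragment, held 1, 3 and 6, with a siStar-PAP score of 7.07. DMBT1L1 held 2, 4 and 3, AHCTF1P1 4, 3 and 1, TP73-AS1 1, 5 and 2, and AHSA2P 0, 3 and 4. CSPG4P11 and LRRC37A9P each held 1, 4 and 2, and SSPOP held 1, 2 and 4. Of these 10, 2 had the most summits in the control and the others in a depleted library.

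The depleted libraries address the specificity of the Star-PAP sites and the part of RBM10 in them, and the lists were compared by asking which control summits had no summit of a depleted library within 500 bp. Of the control pseudogene summits, 82.9% (80.8 to 84.8) had no siStar-PAP summit in that distance, beside 89.3% of all autosomal control summits. No siRBM10 summit was near 87.2% (85.4 to 88.9) of them, beside 91.2% of all. In the opposite direction, 85.7% of the siStar-PAP pseudogene summits had no control summit near, beside 86.4% of all siStar-PAP summits, and 87.1% of the siRBM10 ones, beside 87.7% of all. Most summits thus had no counterpart in either direction, and control pseudogene summits lacked one less often than the whole control list, with intervals that do not reach the share of all. The depleted libraries shared more with each other: 78.7% of siStar-PAP pseudogene summits had no siRBM10 summit within 500 bp, beside 83.6% of all, and 74.2% of siRBM10 ones no siStar-PAP summit, beside 81.8% of all. Processed and unprocessed pseudogenes had similar shares, at 82.1 and 83.8% for control summits without siStar-PAP.

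Summits near both other libraries took a larger share in pseudogenes than over all autosomes. Summits with a counterpart of both other libraries within 500 bp were 50 of 1392 in the control (3.59%, 2.74 to 4.70), 57 of 1801 in siStar-PAP (3.16%, 2.45 to 4.08) and 59 of 1634 in siRBM10 (3.61%, 2.81 to 4.63). Over all autosomal summits the same shares were 1.58, 2.03 and 2.20%. By whole pseudogenes, 925 had summits of the control alone, 1044 of siStar-PAP alone and 940 of siRBM10 alone. The depleted libraries had 322 pseudogenes in common without the control, the control had 176 in common with siStar-PAP alone and 143 with siRBM10 alone. Of the 1325 pseudogenes with a control summit 80.6% had no siStar-PAP summit and 83.1% no siRBM10 summit, beside 47.6 and 49.6% of genes of any type. Genes of any type were counted over all their exon bases, and the part of gene length in these shares was not tested. Of the 1623 pseudogenes with a siStar-PAP summit 84.2% had no control summit and 75.2% no siRBM10 summit, beside 66.2 and 42.3% of genes of any type. Of the 1486 with a siRBM10 summit 84.9% had no control summit and 72.9% no siStar-PAP summit, beside 65.7 and 39.2%.

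Most summits in processed copies fell where the parent mRNA has its coding sequence (CDS), as does most of the sequence of these copies, 5600.4 of 7021 kb. The aligned position in the parent was CDS for 776 of 963 control, 1086 of 1293 siStar-PAP and 994 of 1185 siRBM10 summits, at ratios to shuffled positions of 0.971, 1.68 and 1.70. Bases with no aligned parent position held 163, 183 and 169 summits, at 0.902, 1.18 and 1.20. The aligned 3′-UTR held 18, 17 and 15 summits, at 1.12 (0.665 to 1.77), 1.14 (0.662 to 1.82) and 1.09 (0.608 to 1.79), and the aligned 5′-UTR 6, 7 and 7. Few annotated pseudogene bases align to UTRs, so these intervals are wide. In processed pseudogenes of 1 exon, the 5′-most of 5 equal parts of the exon held 20.8% of control, 24.9% of siStar-PAP and 21.6% of siRBM10 summits, and the 3′-most part 18.9, 15.3 and 16.3%.

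Processed copies keep the exon joints of their parent as a scar in the sequence, and the siRBM10 density was lower far from these joints. In siStar-PAP the drop was smaller, and the interval nearest the joints (1.41 to 1.86) overlapped that beyond 100 nt. Within 1 to 15 nt of a parent exon junction the ratio to shuffled positions was 0.980 in the control, 1.62 in siStar-PAP and 1.82 (1.58 to 2.09) in siRBM10. From 16 to 50 nt it was 1.01, 1.77 and 1.90, from 51 to 100 nt 0.915, 1.77 and 1.69, and beyond 100 nt 1.0, 1.45 (1.25 to 1.67) and 1.24 (1.04 to 1.45). The control was level over these distances. The parents of pseudogenes with a summit often held a summit themselves: of the processed copies with a coding match, 25.4% of control, 67.8% of siStar-PAP and 63.1% of siRBM10 summits had a parent with a summit of the same library in its exons. These shares were 28.3, 63.5 and 61.6% when every base of those copies was counted, which lies inside the interval of the control (22.5 to 28.6) and of siRBM10 (60.1 to 66.0) and below that of siStar-PAP (65.0 to 70.5).

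The study describes GC-rich sequence and an AUA motif around Star-PAP sites. Its motif came from a motif search at top cross-linked positions in 3′-UTRs and CDS, a different measure at other sites. Here GC and the plain AUA triplet were read from the 20 nt around each pseudogene summit. The strand of the pseudogene was assumed because the lists give none. GC content was 48.4% in the control, 52.8% in siStar-PAP and 50.4% in siRBM10, where shuffled positions in pseudogene exons had 47.6, 48.2 and 47.9%. AUA, counted with overlaps, occurred 0.942, 0.679 and 0.775 times per 100 nt, where shuffled positions had 1.02, 1.02 and 1.04. Over all pseudogenes the summits were therefore richer in GC and poorer in AUA than shuffled positions in pseudogene exons at large. Over the whole lists the control lay nearest to its shuffled positions. At a score of 2 or more the order was another, with 51.8% GC in the control and in siStar-PAP and 49.2% in siRBM10. In unprocessed pseudogenes GC was 48.5, 55.4 and 52.6% in the control, siStar-PAP and siRBM10, beside 49.2, 49.6 and 49.4% at shuffled positions, so there the control summits were not richer in GC. In processed ones it was 48.0, 51.9 and 49.4%, beside 46.8, 47.2 and 46.9%. Runs of 6 U were present in 0.431, 0.223 and 0.490% of the windows, beside 0.558, 0.498 and 0.503% at shuffled positions. Runs of 6 G were present in 0, 0.445 and 0.184%, beside 0.176, 0.185 and 0.146%, and runs of 6 A in 1.22, 0.724 and 0.980%, beside 1.11, 1.07 and 1.14%. Each of these shares rests on few windows.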

How the data were processed

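HITS-CLIP peak lists of 3 Star-PAP pull-downs (control, siStar-PAP, siRBM10), 1 library each, were analysed. Reads were filtered and collapsed (CLIP Tool Kit) and trimmed (cutadapt) by the authors, who mapped them to hg19 with BWA, kept reads of at least 18 nt at MAPQ 1 or more and called peaks with MACS2 against IgG at p of 0.05. The submitters' processing notes name FastQC 0.72, cutadapt 1.14, BWA 0.7.12 and MACS2. Each list deposited by the authors holds summits of 1 bp with the −log10 of the p-value, and no strand, width, tag number or read total, so the depth is unknown.

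Summits were placed in GENCODE release 44 exons lifted to hg19. Positions were shuffled 20 times (seed 1) within determined bases of the same chromosome. Pseudogene exons were aligned to 1 canonical transcript per protein-coding gene with blastn 2.17.0 (e-value 1e-10, word size 16), and genes overlapping the pseudogene were left out. Of 6240 pseudogenes with a parent by symbol and by alignment, 6001 had the same one. A summit in both kinds counted as processed. Poisson and Wilson intervals are at 95%. Python 3.11.15, numpy 2.4.6, pandas 2.3.3 and scipy 1.17.1 were used, and 10 of 10 checks of the steps, nearly all on simulated data, gave the known answer.

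The members and lists were chosen with earlier results of these data known. Named were the 5 strongest summits per library, the 10 pseudogenes with most summits, the 10 pseudogenes with the highest lowest-of-3 score (1 of them is not reported here), 18 families and the 10 parents with most summits, and sequences came from the strongest summits and from pseudogenes with summits of all libraries, none of chromosome 8. The name pattern of the mitochondrial family was narrowed after the files were seen. Alternatives were p at most 0.01, merged summits, equal numbers of summits, other exon exclusions, other distances and other windows.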

Additional observations from a re-analysis of the deposited data

Results flagged for a closer look

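Pseudogene exons on chromosomes X and Y, which lie outside the autosomal comparisons, held 122 summits in the control, 128 in siStar-PAP and 148 in siRBM10 under the same rule. They were flagged as data not otherwise used. These counts, X and Y together, were not set beside shuffled positions, so whether they exceed that level was not tested. As on the autosomes, the control had the fewest, and unlike there siRBM10 had the most.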

How the results depend on the processing

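Of 114 values recomputed under another setting, 64 stayed within the counting error or within 1.5 times of the count. At p at most 0.01, control summits in pseudogenes numbered 630, those of ribosomal protein copies 55 and those of all 18 families 163, and the control ratio to shuffled positions turned from below to above 1, at 1.22 (processed 1.32). The control ratio was also above 1 with the same number of top-scoring summits from each library (1.02) and over bases whose 30 nt occur once (1.01), and was 0.993 with the expected number taken from 500 kb on either side. Over bases occurring once the depleted libraries both had 1.48. With the 10000 top-scoring summits, chosen after seeing the data, the ratios were 1.73, 2.29 and 1.54 in the control, siStar-PAP and siRBM10 libraries, and with 50000 they were 1.53, 1.59 and 1.52.

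Shares without a counterpart moved with the distance. For control summits without siStar-PAP and without siRBM10, then siStar-PAP summits without control and without siRBM10, then siRBM10 summits without control and without siStar-PAP, they were 94.6, 96.1, 95.4, 92.7, 96.8 and 91.6% at 100 bp, 74.1, 77.6, 76.6, 66.9, 77.4 and 62.5% at 1000 bp, and 99.7, 99.8, 99.8, 99.3, 99.8 and 99.2% at the same position. At p at most 0.01 the control share without siStar-PAP was 79.7%, the siStar-PAP shares were 90.8% without control and 81.4% without siRBM10, and the siRBM10 shares 92.9% and 79.0%. With equal numbers of summits the siRBM10 shares were 89.0% without control and 77.3% without siStar-PAP, beside 90.2 and 84.1% over all autosomal summits.

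GC content at p at most 0.01 was 51.8, 51.8 and 49.2% in the control, siStar-PAP and siRBM10 libraries. AUA in 200 nt occurred 1.12, 0.806 and 0.913 times per 100 nt, beside 1.20, 1.16 and 1.17 at shuffled positions. With 50 nt, 11.9, 13.9 and 12.8% of the summits had a copy elsewhere in the control, siStar-PAP and siRBM10 libraries. Each of these shares lay below the share of all pseudogene bases with a copy at 50 nt, as at 30 nt. The cause of these changes was not tested, except for what follows by construction. A wider distance or a longer stretch gives fewer unmatched or copied summits, and a longer window loses fewer triplets per nt at its ends.

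No paired analysis was possible because each condition had 1 library, and no library was left out. An absent summit means that none was listed at p of 0.05, at a depth that the lists do not give.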
